A study of Prunus persica with 12 samples.

Results

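The gene described here is CCD4 of peach (Prunus persica), which encodes a carotenoid cleavage dioxygenase. It is the row ppa006109m, 1 of the 27864 gene identifiers in the deposited tables, taken by its identifier as the gene of the locus that separates white from yellow flesh. It was selected on its RPKM in these same 12 libraries, where it is low in the cultivar JX2 and high in the others. Its levels are therefore given as a description with their errors, and no p-value is attached to them.

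Peach flesh takes its yellow colour from carotenoids, pigments made and stored in plastids. CCD4 is a plastid enzyme that cuts carotenoids, which removes colour and yields apocarotenoids, some of them scented volatiles. White-fleshed peaches carry a working copy of the gene, and yellow-fleshed peaches are known to carry copies that have lost their function, among them copies with an inserted mobile element and copies with a broken reading frame. The files hold no genotype, and they do not show which copy any cultivar carried.

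RNA was sequenced from mesocarp, the edible flesh, in 12 libraries, 2 in each of 6 groups. JX2 is 'Jin Xiu Huang Tao' at the stage numbered 2; the words Huang Tao in its name mean yellow peach. ZH2 is 'Zhong Hua Shou Tao' and YL2 is 'Yu Lu', both also at stage 2. HJ1, HJ2 and HJ3 are 'Hu Jing Mi Lu' at 3 ripening stages. The labels give no flesh colour, no date and no genotype, and leave it unsaid if replicates are different fruit, trees or RNA extractions, so the spread between them may be technical. The labels rate ZH2 and HJ1 as slight in aroma and the other groups as strong, and ZH2 as hard melting and the others as soft melting. The Brix reading, which tracks dissolved sugars, was 12 in JX2, 18 in ZH2, 14.9 in YL2, 12.1 in HJ2 and 12.5 in HJ3, with no value for HJ1.

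Levels are in RPKM, the reads of a gene corrected for its length and for the depth of the library. Whole reads could be worked back from the RPKM. The depth of the libraries then ran from 1205507 reads in HJ1 replicate 2 to 3222252 reads in HJ2 replicate 2. Reads of the genes worked back made up between 99.97% (HJ1 replicate 1) and 99.996% (ZH2 replicate 2) of this depth. It thus counts reads assigned to genes, and the number of reads sequenced is not known. Across genes, the libraries of a pair correlated with Pearson's r of log2(RPKM + 1) between 0.961 (HJ1) and 0.978 (HJ2). Within each pair the reads differed beyond sampling noise, at a chi-square per degree of freedom between 1.75 (JX2) and 2.29 (HJ3). These values do not tell technical from biological spread. Each library was counted as a sample. The gene model of CCD4 came out at 1847 bases, longer than 73.2% of the genes whose length could be worked back, which had a median of 1320 bases.

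CCD4 was low in the flesh of JX2, below the median of 6.84 RPKM over the genes tested there, and abundant in every other group. Its level was 6.05 RPKM in JX2 replicate 1 and 2.84 RPKM in JX2 replicate 2. In ZH2 it was 929.8 and 868 RPKM, and in YL2 it was 1803 and 1879.9 RPKM. In HJ it was 287 and 320.2 RPKM at stage 1, 999 and 1174 RPKM at stage 2, and 854 and 1036 RPKM at stage 3. The JX2 libraries lay below all 10 others, and the lowest of those 10, HJ1 replicate 1, was 47.4 times the higher JX2 library. Because whole flesh was sampled, fewer cells that express the gene and less of its RNA per cell cannot be told apart.

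**Figure D1:**
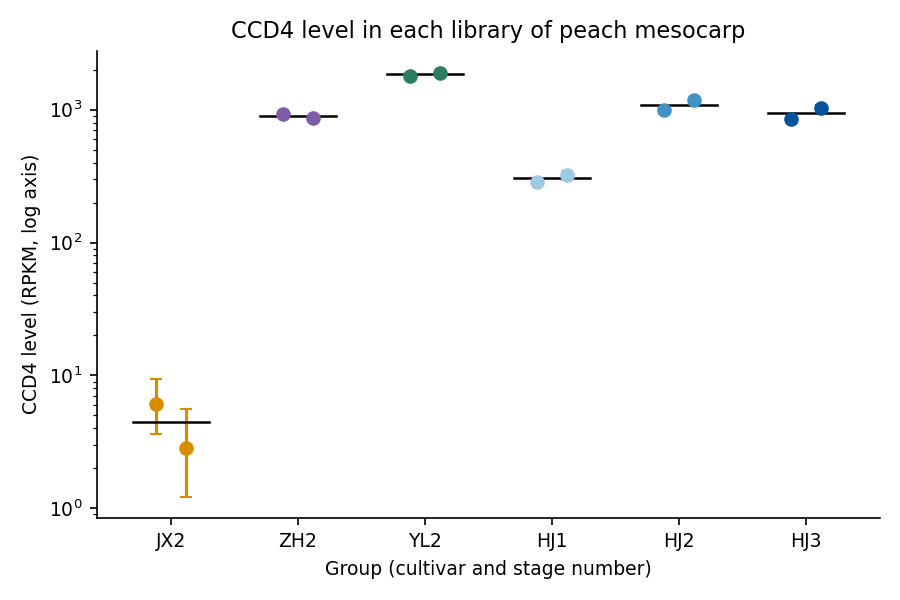
CCD4 level in RPKM on a log axis (vertical) for the 12 libraries, by group (horizontal). Points are libraries, bars their 95% counting intervals (narrower than the points outside JX2) and black lines the mean of the 2 libraries; the JX2 libraries sit at 6.05 and 2.84 RPKM and the 10 others between 287 and 1879.9 RPKM.

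As group means, CCD4 stood at 4.45 ± 2.27 RPKM in JX2, 899 ± 43.4 RPKM in ZH2 and 1842 ± 54.2 RPKM in YL2 (SD, n = 2). In HJ the means were 304 ± 23.6 RPKM at stage 1, 1087 ± 124 RPKM at stage 2 and 945 ± 128 RPKM at stage 3 (SD, n = 2). The order of the means was YL2, HJ2, HJ3, ZH2, HJ1 and JX2. YL2 and HJ2 lay apart, by 6.38 times the SD pooled over both groups on the log2 scale. HJ2 and HJ3 differed by 1.12 pooled SD and HJ3 and ZH2 by 0.446, and in both pairs the libraries overlapped, so the order of these neighbours is not settled. After rescaling by median ratio the mean of HJ3, 999.9, lay just above that of HJ2, 997. ZH2 lay above HJ1 by 16.8 pooled SD, and HJ1 lay above JX2 by 13.2. Each pooled SD rests on 2 libraries per group, so these multiples are rough and do not rank the gaps by size.

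The depth behind these values differed by group. In JX2 the level rests on 19 reads in replicate 1 (exact Poisson 95% interval 11.4 to 29.7) and 8 reads in replicate 2 (3.45 to 15.8). These intervals correspond to 3.64 to 9.45 RPKM and 1.23 to 5.60 RPKM, so the JX2 libraries agree within counting error although their values differ 2.13-fold. Both were above the level worth 3 reads, about the one-sided 95% limit for a count of 0, which was 0.956 and 1.07 RPKM. The reads assigned to CCD4 in JX2 were thus few but not 0. Whether they are transcripts of the gene in JX2 flesh was not tested. The JX2 libraries held 1699524 and 1524800 reads assigned to genes, more than HJ1 replicate 2, in which CCD4 had 713 reads. In the other groups the level rests on between 713 reads (HJ1 replicate 2) and 8856 reads (YL2 replicate 2). Intervals cover counting error only, and how the authors treated reads that match several genes is not given in the sources used here.

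Set among the other genes of each library, CCD4 was of middling to low rank in JX2 and one of the most abundant transcripts elsewhere. In JX2 it ranked 7998 of 14276 genes and 10295 of 14198 genes. It ranked 39 and 37 by RPKM among the genes above 0 in the YL2 libraries, and 65 and 70 in the ZH2 libraries. In HJ it ranked 394 and 329 at stage 1, 83 and 70 at stage 2, and 69 and 51 at stage 3. As a share of the reads assigned to genes, CCD4 took 0.00112% and 0.000525% in JX2. It took 0.333% and 0.347% in YL2, at the other end of the order.

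At stage 2, where all 4 cultivars were sampled, JX2 was set against the others. The mean RPKM of CCD4 was 414-fold lower in JX2 than in YL2, 244-fold lower than in HJ2 and 202-fold lower than in ZH2. Computed from depth-corrected reads, the factor was 406 against YL2 (95% counting interval 279 to 617), 242 against HJ2 (166 to 368) and 198 against ZH2 (136 to 300.4). These factors depend on the JX2 library used. Without JX2 replicate 1 they were 648, 383 and 317, and without JX2 replicate 2 they were 304, 179.5 and 149, in the same order, so the size of the gap varied with the library while each factor stayed above 100.

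JX2 also lay below the stages of HJ that carried other numbers. The mean RPKM was 68.3-fold lower in JX2 than in HJ1 (107 without JX2 replicate 1), the lowest of the other groups, and 212-fold lower than in HJ3 (333 without JX2 replicate 1). The depth-corrected factor was 66.1 against HJ1 (45.3 to 100.6) and 206 against HJ3 (142 to 313). The labels do not say how ripe the fruit of the different cultivars were, and all 3 HJ stages held far more CCD4 RNA than JX2.

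On the log2(RPKM + 1) scale, with the SE of a limma fit over all genes that pools the spread of the 6 groups, JX2 minus YL2 was -8.47 ± 0.220 (SE) and JX2 minus HJ2 was -7.70 ± 0.220. JX2 minus HJ3 was -7.50, JX2 minus ZH2 was -7.43 and JX2 minus HJ1 was -5.87, each with the same SE. That SE is narrow for comparisons with JX2, whose libraries had an SD of 0.620 on this scale. With limma voom on whole reads the SE of the JX2 differences ran from 0.395 (JX2 minus YL2) to 0.402 (JX2 minus HJ1). The pseudocount of 1 shortens these differences, since the JX2 levels are only a few RPKM. With a pseudocount of 0.1 they ran from -8.76 against YL2 to -6.16 against HJ1.

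For background, genes were counted whose libraries did not overlap between 2 groups and whose log2 difference was at least 1. Of 15217 genes tested, 8.17% were lower in JX2 than in YL2 by this rule, 9.17% lower than in HJ2, 5.89% lower than in ZH2, 7.5% lower than in HJ3 and 23.7% lower than in HJ1. CCD4 met the rule in all 5 comparisons, which follows from how it was picked. Its distance was at the far end of the scale. No gene of the 15217 lay farther down in JX2 against YL2, HJ2, ZH2 or HJ3, while 28 genes lay farther down against HJ1. Both JX2 libraries lay below the 10 others for 537 genes, 3.53% of those tested, and above them for 380 genes.

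The smallest of the 5 differences gives a single measure of how far below every other group a gene lay in JX2. For CCD4 it was 5.87, against HJ1, and the next gene reached 2.95. A smallest difference of at least 1 was reached by 49 genes and of at least 2 by 4 genes, and CCD4 alone reached 3. CCD4 thus stood farther below all other groups in JX2 than any other gene tested, by a log2 distance of 2.92 to the next. On the log2(RPKM + 1) scale a gene cannot fall farther than its own level in the other groups, so only abundant genes could reach such a distance. The gene ppa018318m, for one, was at 0 RPKM in JX2 but at only 5.02 RPKM in HJ1. The place of CCD4 thus also reflects how abundant it was outside JX2. As the gene was picked with this pattern known, its place is a description of these libraries.

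**Figure D2:**
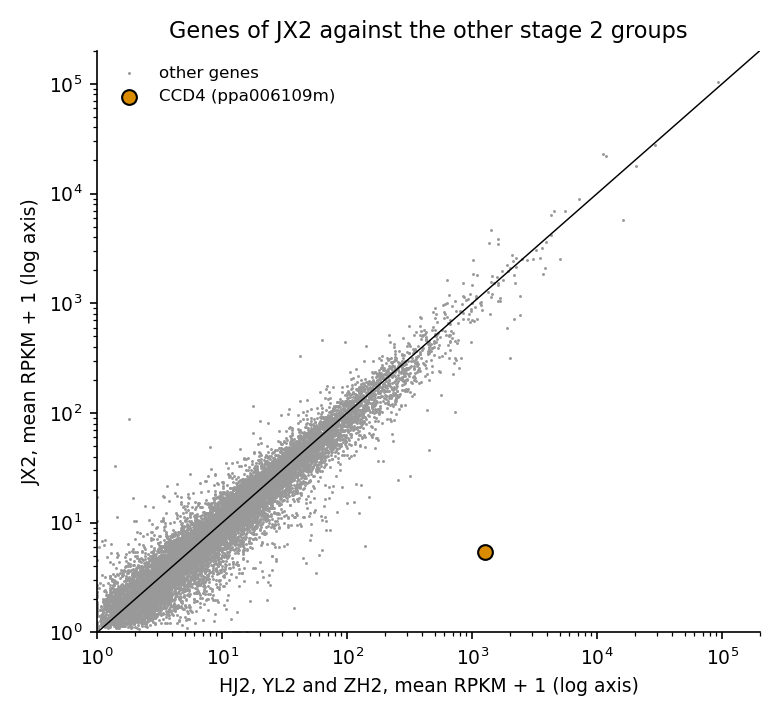
Mean RPKM + 1 of the genes tested in JX2 (vertical, 2 libraries) against HJ2, YL2 and ZH2 together (horizontal, 6 libraries), both on log axes, with the line of equality. CCD4, the orange point, lies far below the line and apart from all other genes, at a mean of 4.45 RPKM in JX2.

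Within HJ, CCD4 was lower at stage 1 than at stages 2 and 3. The HJ2 libraries held 999 and 1174 RPKM, against 287 and 320.2 RPKM in the HJ1 libraries, and the groups did not overlap. The mean was 3.58 times that of HJ1, and the ratios between single libraries ran from 3.12 to 4.09. HJ2 minus HJ1 was 1.83 ± 0.220 on the log2 scale (SE), while the median of all genes tested was -0.21. By the rule of libraries apart and a log2 difference of at least 1, 5.44% of genes were higher in HJ2. Of all 15217 genes tested, with libraries apart or not, 225 were farther up than CCD4.

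From stage 2 to stage 3 the log2 difference was smaller than the gap between the libraries of either pair. The HJ3 libraries held 854 and 1036 RPKM, against 999 and 1174 RPKM in the HJ2 libraries, and they overlapped. The ratio of means was 0.870, and HJ3 minus HJ2 was -0.20 ± 0.220 on the log2 scale (SE), close to the -0.21 of the median gene. With limma voom on whole reads it was -0.22 ± 0.0871 (SE). The depth-corrected ratio was 0.851, with a 95% counting interval of 0.825 to 0.879 that leaves out the spread between libraries. After each library was rescaled by its median ratio the difference was near 0, at -0.00080. The single-library ratios ran from 0.727 to 1.04, which leaves room for a modest difference either way.

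Between the outer stages, HJ3 stood at 3.11 times the mean of HJ1, with single-library ratios from 2.67 to 3.61. The log2 difference was 1.63 ± 0.220 (SE), against a median of -0.37 over all genes tested. By the same rule 7.05% of genes were higher in HJ3. Of all 15217 genes tested, with libraries apart or not, 555 were farther up than CCD4. Relative to the rest of the transcripts the gap was wider: after rescaling it was 2.01 for HJ3 minus HJ1 and 2.01 for HJ2 minus HJ1. In HJ, the gap of CCD4 thus lay between stage 1 and the later stages, which overlapped.

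Among the cultivars other than JX2, YL2 held the most CCD4 RNA. Its 1803 and 1879.9 RPKM lay above the 999 and 1174 RPKM of HJ2, a ratio of means of 1.69 with single-library ratios from 1.54 to 1.88. YL2 minus HJ2 was 0.76 ± 0.220 on the log2 scale (SE), short of a difference of 1, and 0.95 after rescaling. The 95% counting interval of the depth-corrected ratio was 1.64 to 1.72, far narrower than the range between libraries, so the replicate libraries and not the number of reads limit this value.

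ZH2, the hard-melting cultivar, lay close to HJ2. It held 929.8 and 868 RPKM, against 999 and 1174 RPKM in HJ2, and the libraries did not overlap. The ratio of means was 0.827 and the log2 difference -0.27 ± 0.220 (SE), beside a median of -0.23 over all genes tested. After rescaling the difference was -0.0203, and the rescaled libraries of ZH2 (1008 and 952) lay between those of HJ2 (913 and 1081). The difference of CCD4 was thus close to that of the median gene.

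ZH2 held less CCD4 RNA than YL2, with 929.8 and 868 RPKM against 1803 and 1879.9 RPKM, and the libraries lay apart. The ratio of means was 0.488 and the log2 difference -1.03 ± 0.220 (SE). By the rule above 7.01% of genes were lower in ZH2 than in YL2. Of all 15217 genes tested, with libraries apart or not, 1003 were farther down than CCD4. After rescaling the difference was -0.97, so that CCD4 no longer reached a difference of 1. Without ZH2 replicate 2 it was -0.98.

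**Figure D3:**
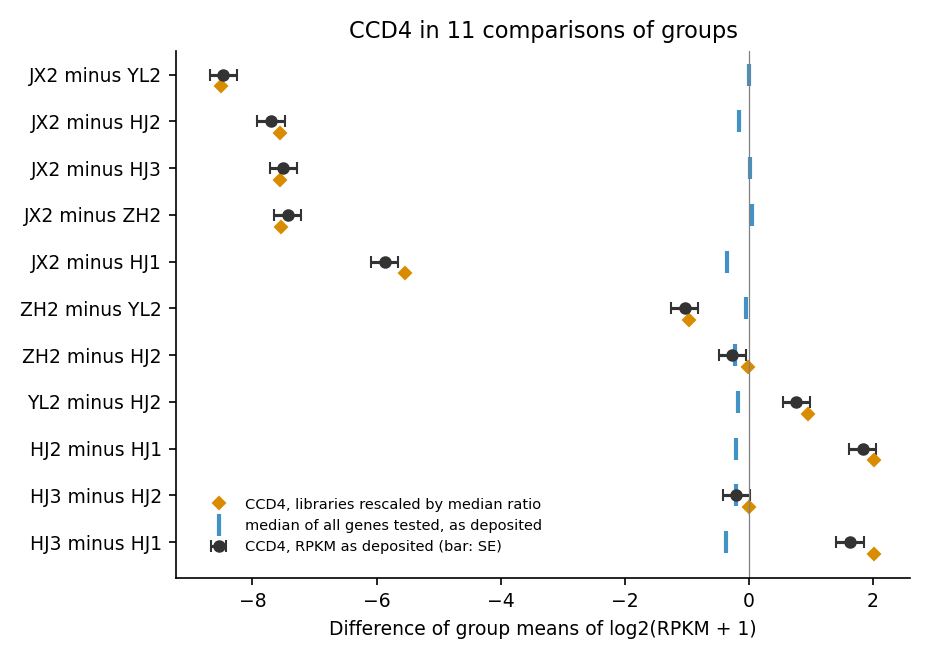
Difference of group means of log2(RPKM + 1) for CCD4 (horizontal) in 11 comparisons of groups (vertical). Black points are values as deposited with their SE of 0.220, orange diamonds the values after rescaling and blue ticks the median of all genes tested; the 5 differences that involve JX2 lie between -8.47 and -5.87 and the others between -1.03 and 1.83.

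Over all 6 groups the level of CCD4 did not follow the labels for aroma. The groups rated strong included both the lowest mean, 4.45 RPKM in JX2, and the highest, 1842 RPKM in YL2. The groups rated slight, ZH2 and HJ1, lay at 899 and 304 RPKM, between them. With JX2 set aside, the groups rated slight had the lowest means, below 945 RPKM in HJ3 and 1087 RPKM in HJ2. The libraries of ZH2 and HJ3 overlapped, however, and aroma cannot be told apart from cultivar and stage here. The level did not follow Brix over all groups either: JX2 at a Brix of 12 and HJ2 at 12.1 held 4.45 and 1087 RPKM. No correlation over groups was computed, since Brix is given for only 5 of them.

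The spread between libraries of a pair was small beside the differences that involve JX2 or HJ1, and about as large as those of HJ3 minus HJ2 and ZH2 minus HJ2. On the log2 scale the libraries of a pair differed by 0.88 in JX2, 0.10 in ZH2 and 0.06 in YL2. In HJ they differed by 0.16 at stage 1, 0.23 at stage 2 and 0.28 at stage 3. Genes within 2-fold of the CCD4 level had a median gap of 0.39 in JX2, where counts are low, and between 0.08 and 0.16 in the other groups. The gap of CCD4 was larger than that of 84.8% of 4172 such genes in JX2, 94.0% of 117 in HJ2 and 84.3% of 127 in HJ3. It was larger than that of 56.5% of such genes in ZH2, 31.7% in YL2 and 49.9% in HJ1, so CCD4 was less even than most genes of its level in JX2, HJ2 and HJ3 and about typical or more even in the others.

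Genes of a similar pattern were sought by Pearson's r of log2(RPKM + 1) with CCD4 over the 12 libraries, which share groups, among 5562 genes that varied by at least 1 on the log2 scale between group means and reached 10 RPKM in a group. The identifiers carry no product names in the files, so only the 2 most alike and the 2 most opposite are given, with no function. An r of 0.9 was reached by 2 genes over the 12 libraries, by 1 gene without JX2 replicate 2 and by up to 4 genes with another library left out, by 4 after rescaling, and by 7 over the 6 group means. The gene ppa018318m (r = 0.94) had 0 reads in both JX2 libraries. Its mean was 19.0 RPKM in ZH2, 10.01 RPKM in YL2, 5.02 RPKM in HJ1, 9.09 RPKM in HJ2 and 14.0 RPKM in HJ3. Its highest group was thus ZH2 and not YL2.

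The gene ppa013184m (r = 0.94) had a far smaller range. Its mean was 39.8 ± 10.7 RPKM in JX2, and between 70.9 RPKM (HJ1) and 86.2 RPKM (YL2) in the other groups. Its group means spanned 1.12 on the log2 scale, against 8.47 for CCD4. In the opposite direction, ppa016741m (r = -0.96) had 19 and 14 reads in the JX2 libraries and 0 reads in all 10 others. The gene ppa010141m (r = -0.94) stood at 40.5 ± 7.65 RPKM in JX2 and between 19.3 RPKM (YL2) and 27.0 RPKM (HJ1) elsewhere.

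The likeness of 3 of these 4 genes rested largely on the JX2 libraries, and that of ppa010141m less so. Over the 10 libraries without JX2, r was 0.53 for ppa018318m, 0.59 for ppa013184m and -0.85 for ppa010141m, and could not be computed for ppa016741m. When all genes were ranked again without JX2, 0 of the 20 most alike were shared with the first ranking and 78 genes reached an r of 0.9. The 20 genes most like CCD4 across the HJ stages, YL2 and ZH2 were thus other genes than the 20 ranked with JX2 included.

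**Figure D4:**
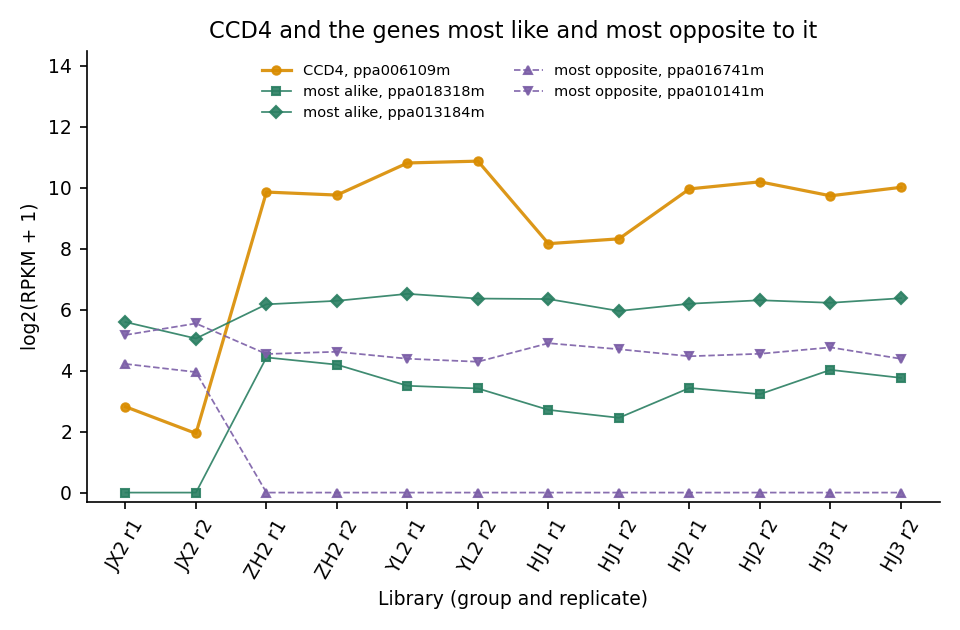
log2(RPKM + 1) (vertical) of CCD4 and of 4 other genes in each of the 12 libraries (horizontal); lines only join the points of a gene. The green genes, most alike, are lowest in the JX2 libraries and the purple genes, most opposite, are highest there, and all 4 move over a shorter range than the 8.47 of the CCD4 group means.

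The other genes of the carotenoid pathway, from phytoene synthase to the remaining cleavage dioxygenases, could not be set beside CCD4. A search of the reference gene table found 0 of the 27864 identifiers, so none could be given a product name.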

How the data were processed

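Each of the 12 libraries has its own deposited table, which lists RPKM for the same 27864 identifiers, per the file headers. The submitters' processing notes name 4 tools without a role or order: DESeq 1.10.1, HTSeq 0.5.3, TopHat 1.4.0 and Bowtie 0.12.8. The sources used here do not give the genome build, the annotation, any filter, the strand setting or the treatment of reads matching several genes.

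Depth, gene length and whole reads were worked back from the steps in the RPKM (Python 3.11.15, numpy 2.4.6, pandas 2.3.3). Whole reads, within 0.001 reads, were found for each of the 17316 genes with values above 0 in 2 or more libraries. The steps for whole reads and for the depths relative to each other were tested on simulated data. Those for absolute depth and gene length were not. Absolute depth was sought only at or just above the summed reads of the genes. Counting intervals are exact at 95% (Poisson for reads, binomial for ratios; scipy 1.17.1). Differences and their SE came from limma (3.58.1, with R 4.3.3), run on log2(RPKM + 1) and fitted to the 15217 genes of at least 1 RPKM in 2 or more libraries, with 6 group means and no block; this scale understates changes of low genes. The SE pools the groups, and most of the spread of CCD4 comes from JX2. It is therefore narrow for comparisons with JX2 and wide for the others.

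The gene, the lists and the comparisons were chosen with earlier results of these data known. Besides CCD4, the rule for naming genes took the 2 with the highest and the 2 with the lowest r. The 5 lists of carotenoid-related genes, defined by product name, were not used: the reference table (Prunus_persica_NCBIv2, 26412 genes) matched 0 identifiers.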

Additional observations from a re-analysis of the deposited data

How the results depend on the processing

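All 11 CCD4 differences kept their sign under every alternative run. The alternatives were pseudocounts of 0.1 and 0.5, no filter on low values, limma voom on whole reads and rescaling by median ratio. Depth counted without the 10 most abundant genes (added after the data had been seen) and each library left out were also run. After rescaling, HJ3 minus HJ2 (-0.00080) and ZH2 minus HJ2 (-0.0203) were near 0, so their direction is not settled. The shift that rescaling gave to the log2 difference of a gene had a median over genes of 0.17 for HJ2 minus HJ1, 0.18 for HJ3 minus HJ2, 0.34 for HJ3 minus HJ1, 0.30 for JX2 minus HJ1, 0.14 for JX2 minus HJ2, 0.16 for YL2 minus HJ2 and 0.22 for ZH2 minus HJ2, and under 0.1 in size for the other 4.

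Rescaling moved 6 differences by more than their replicate SD: HJ2 minus HJ1 to 2.01, HJ3 minus HJ2 to -0.00080, HJ3 minus HJ1 to 2.01, YL2 minus HJ2 to 0.95, ZH2 minus HJ2 to -0.0203 and ZH2 minus YL2 to -0.97. Depth without the 10 most abundant genes moved 4: HJ2 minus HJ1 to 1.98, HJ3 minus HJ1 to 1.86, ZH2 minus HJ2 to -0.14 and ZH2 minus YL2 to -0.97. Rescaled means were 4.56 (JX2), 979.9 (ZH2), 1916 (YL2), 246 (HJ1), 997 (HJ2) and 999.9 (HJ3), which turned the order of HJ2 and HJ3; without the 10 genes, which scales all levels up, they were 1271 (ZH2), 2480 (YL2), 353 (HJ1), 1402 (HJ2) and 1286 (HJ3).

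With a library left out, the lowest and highest differences were -8.91 and -8.03 for JX2 minus YL2, -8.14 and -7.26 for JX2 minus HJ2, -7.94 and -7.06 for JX2 minus HJ3, -7.87 and -6.99 for JX2 minus ZH2, -6.31 and -5.43 for JX2 minus HJ1, 1.72 and 1.95 for HJ2 minus HJ1, -0.34 and -0.06 for HJ3 minus HJ2, 1.49 and 1.77 for HJ3 minus HJ1, 0.65 and 0.88 for YL2 minus HJ2, -0.39 and -0.15 for ZH2 minus HJ2, and -1.08 and -0.98 for ZH2 minus YL2. The lone library is then assumed to vary like the other groups. Of the 20 genes most like CCD4, 13 were shared when r was taken over the 6 group means, 12 after rescaling, 4 by root-mean-square distance, between 6 (without JX2 replicate 2) and 17 with a library left out, and 0 without both JX2 libraries. Causes of these moves were not tested.

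With the replicate number as a block the differences were the same by construction (JX2 minus HJ2 at -7.70) and the SE was 0.230 in place of 0.220. Libraries of the same number did not deviate together: over 15 pairs of groups the correlation of their deviations ran from -0.0667 to 0.0499. The JX2 levels rest on 19 and 8 reads, which limits every fold against JX2.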
